A study of Mus musculus with 22 samples.

Results

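The subject is MHC class I and the machinery that loads it with peptide, as RNA in donor T cells after transplantation. The members are a list of gene symbols, drawn up with earlier results of these data known although no measured value enters the rule, and all 10 were found among the 24091 gene symbols of the count table. They are B2m, H2-K1, H2-D1, Tap1, Tap2, Tapbp, Psmb8, Psmb9, Psmb10 and Nlrc5. All 10 passed the filter on low counts, which kept 12841 genes.

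Each of the 22 libraries held donor T cells of wild-type C57BL/6 origin, sorted on day 7 after spleen and bone marrow cells were injected into lethally irradiated wild-type BALB/c mice. The recipients were given an anti-IL-2 monoclonal antibody or control IgG on alternate days, the first dose on day 0 and the last on day 6. Every group therefore shares the donor strain, the irradiation and the transplant. The 8 groups were, for CD4 and for CD8 T cells, gut (colon) anti-IL-2, gut IgG, spleen anti-IL-2 and spleen IgG. Both gut IgG groups had 2 libraries and the other groups had 3. The ages of the mice and whether libraries came from single or pooled animals are not given in the labels, so the p-values below measure the spread between libraries, which may be technical. The label field batch takes 3 values, 181201, 181212 and 190306, and batch 181201 has no gut IgG library. The title names recipients lacking PD-L1, and such samples were not analysed here.

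MHC class I displays peptides from inside a cell to CD8 T cells. H2-K1 and H2-D1 encode the heavy chains, and B2m encodes beta-2-microglobulin, the light chain without which the heavy chain is not stably held at the surface. Psmb8, Psmb9 and Psmb10 encode the catalytic subunits of the immunoproteasome, which cuts proteins into peptides. Tap1 and Tap2 form the transporter that carries those peptides into the endoplasmic reticulum, and Tapbp (tapasin) bridges the transporter to empty class I. Nlrc5 is the transactivator of class I genes, and both interferon-gamma and type I interferon raise most of these transcripts. In transplantation, class I of the donor and of the recipient is a main target of alloreactive T cells. The genome build used for counting is of the C57BL/6 strain, the donor strain here.

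Of the members, 7 lie on chromosome 17. By GENCODE M21 on mm10, H2-K1 occupies chr17:33996017-34000347 on the minus strand and H2-D1 chr17:35262730-35267499 on the plus strand. Between them lie Psmb9 (minus strand, chr17:34181987-34187764), Tap1 (plus, chr17:34187553-34197225), Psmb8 (plus, chr17:34197721-34201454) and Tap2 (plus, chr17:34203527-34216321). Tapbp (plus) is at chr17:33915899-33929292. B2m (plus) is at chr2:122147686-122153083, Psmb10 (minus) at chr8:105935735-105938444 and Nlrc5 (plus) at chr8:94434356-94527272. All are protein-coding genes counted over their exons.

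RefSeq promoter windows on GRCm38.p6 (250 bases before to 50 after the start) were matched by symbol for 8 members, and not for Tap2 and Nlrc5. The bases before the start are shown for the light chain and both heavy chains. The stretch between the starts of Psmb9 and Tap1 is shown because these neighbours share it. The part of these sequences in any difference below was not tested. Each reads 5′ to 3′ on the named strand. In B2m (chr2:122147437-122147686, plus strand) capitals mark the core of an interferon-stimulated response element (ISRE), GAAA followed by any 2 bases and GAAA, at bases -139 to -130 from the start, and ATTGG, the reverse complement of CCAAT, at -53 to -49. In H2-K1 (chr17:34000348-34000597, minus strand) and H2-D1 (chr17:35262844-35263093, plus strand) they mark the longest run of bases that both share, 47 bases at -141 to -95 in H2-K1 and at -201 to -155 in H2-D1. Between Psmb9 and Tap1 (chr17:34187331-34187555, plus strand) they mark CCAAT.
B2m: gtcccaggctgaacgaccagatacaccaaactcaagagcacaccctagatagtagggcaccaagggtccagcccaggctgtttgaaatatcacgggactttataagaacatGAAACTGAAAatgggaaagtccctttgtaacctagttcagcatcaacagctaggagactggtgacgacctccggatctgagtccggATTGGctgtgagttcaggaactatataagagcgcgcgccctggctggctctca
H2-K1: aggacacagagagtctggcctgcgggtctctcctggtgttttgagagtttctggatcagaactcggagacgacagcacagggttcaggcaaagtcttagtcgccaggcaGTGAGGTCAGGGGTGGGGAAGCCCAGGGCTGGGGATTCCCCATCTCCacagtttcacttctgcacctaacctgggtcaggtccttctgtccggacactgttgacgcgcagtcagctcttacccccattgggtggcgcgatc
H2-D1: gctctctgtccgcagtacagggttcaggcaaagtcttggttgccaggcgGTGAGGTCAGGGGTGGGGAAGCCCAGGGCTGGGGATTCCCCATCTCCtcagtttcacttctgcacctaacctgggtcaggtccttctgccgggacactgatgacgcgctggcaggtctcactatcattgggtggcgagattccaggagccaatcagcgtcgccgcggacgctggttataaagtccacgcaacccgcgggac
Psmb9 to Tap1: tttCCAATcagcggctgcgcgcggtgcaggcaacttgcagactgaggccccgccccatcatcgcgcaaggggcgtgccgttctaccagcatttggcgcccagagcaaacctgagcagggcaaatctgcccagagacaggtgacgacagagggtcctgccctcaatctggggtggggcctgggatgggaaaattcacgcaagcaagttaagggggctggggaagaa

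Both strands of the whole windows were searched. The ISRE core was found in 1 of the 8 members, B2m, and in 3.44% of all 32851 promoter windows. Looser spellings of this element were not searched for, so the count does not show that H2-K1, H2-D1 or the other members lack one. A STAT site, TTCNNNGAA, was found in 1 member, Psmb8, beginning at base -97 as ttcccagaa, and in 8.30% of all windows. CCAAT was found in 6 members and in 37.4% of all windows. The run shared by H2-K1 and H2-D1 was found in 3 of all windows, the 2 overlapping windows of H2-K1 and the 1 of H2-D1. The Psmb9 and Tap1 windows overlap by 275 bases on opposite strands, with starts 226 bases apart.

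Total counts ran from 14628806 to 24518362 per library, with 18691889 to 24518362 in batch 190306. The members took 0.781% to 1.09% of the counts of a library, and single member counts ran from 1449 (Psmb10) to 72439 (H2-K1). T cell genes (5 of 7 listed were in the table) summed to 2920.1 to 4475 CPM (counts scaled to library size). Cd8a and Cd8b1 summed to 8.65 to 15.5 CPM in CD4 libraries, against 1738 to 3244 CPM in CD8 libraries, and Cd4, Cd40lg and Zbtb7b summed to 2219 to 3098 CPM in CD4 libraries, against 72.5 to 124 CPM in CD8 libraries. The tissue of 5 libraries, all CD8 IgG, is one in the description and the other in the source name and characteristics, and the source name was followed. Gut epithelial genes summed to 43.4 and 46.9 CPM in the CD8 libraries labelled gut IgG, against 7.45 to 9.74 CPM in those labelled spleen IgG. In bulk libraries fewer cells of a type and less RNA per cell cannot be told apart.

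B2m was the most abundant member per length. Its level was 1726 to 2430.1 CPM over the 22 libraries, with a median of 2030.4 CPM, or 2361 CPM per kilobase of exon. The heavy chains followed, H2-K1 with a median of 842 CPM per kilobase (1722 to 3648 CPM) and H2-D1 with 705 CPM per kilobase (1483 to 2474 CPM). The remaining 7 members were lower on the same scale. Psmb8 and Tapbp had medians of 129.8 and 123 CPM per kilobase, Tap1 and Tap2 of 101 and 92.6, Nlrc5 of 82.7, and Psmb10 and Psmb9 of 77.6 and 39.5. This order depends on the length of all annotated exons, such as 860 bases for B2m and 3660 for Psmb9. That length can differ from that of the transcripts present. Without this scaling H2-K1 had the highest median, 2474 CPM, and Psmb10 the lowest, 132 CPM, with Psmb9 at 144 CPM. Libraries differed most for Psmb10 and H2-K1, whose highest library was 2.13 and 2.12 times the lowest, and least for Tap1 and B2m, at 1.36 and 1.41 times.

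Class I genes are a family of related genes that share stretches of sequence, so values of single genes can depend on how shared reads were counted. Of the 50-base words in the transcripts of each member, 9.63% for H2-K1 and 12.8% for H2-D1 also occurred in transcripts of another gene on either strand, and the rule for reads with several matches is not given in the sources used here. H2-Q6, a class Ib gene with 35.0% shared words, had 0 counts in every library. Of the class Ib genes named below, H2-Q4 had 36.4%, H2-Q7 26.5% and H2-T23 14.5% shared words, so the same limit holds for their values. For Tapbp the share was 23.2%, for Psmb8 11.9% and for Tap2 11.6%, and for the other 5 members it was 0% to 4.19%. B2m lies wholly within the span of Patl2 on the opposite strand without sharing such a word. Tap1 and Psmb9 overlap by 212 bases on opposite strands, Tap2 and Psmb8 overlap the antisense gene Gm20496, Tapbp overlaps Zbtb22 on its own strand, Psmb10 overlaps Gm16156 and Nlrc5 overlaps 9330175E14Rik. The library kit keeps strand, but the strand setting of the counting is not given in the sources used here, so reads of such neighbours cannot be told apart.

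**Figure D1:**
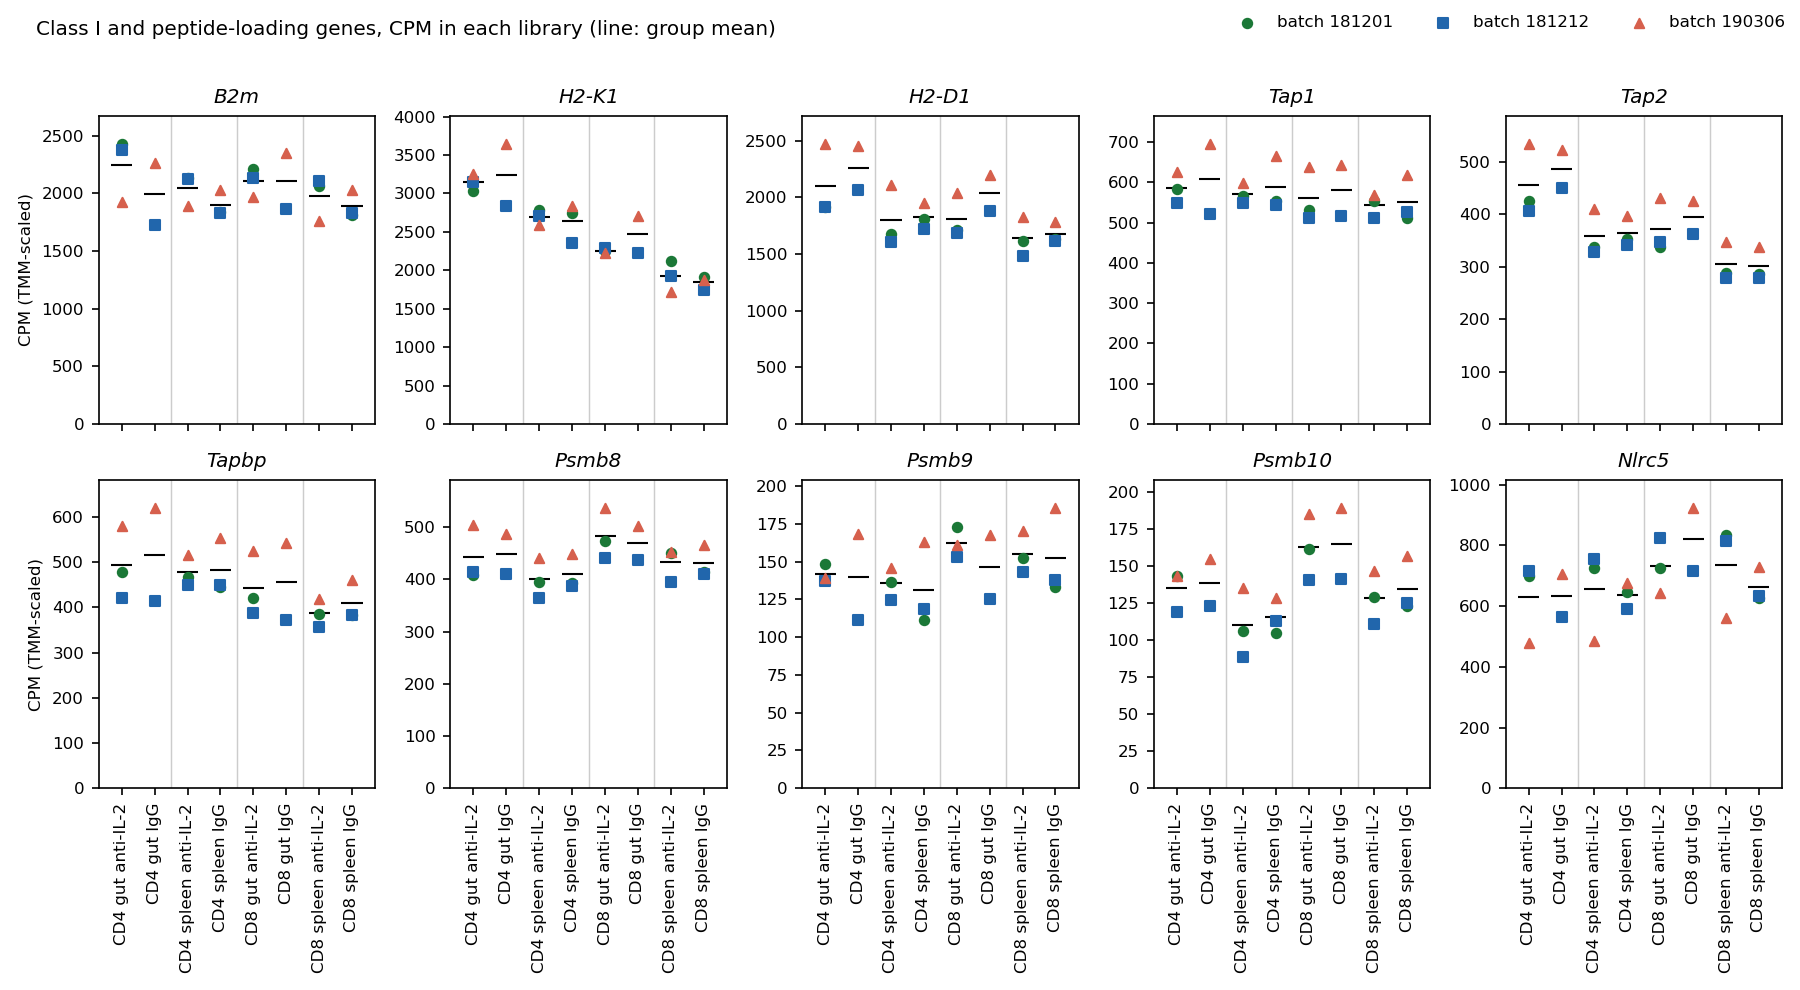
CPM of each of the 10 members in each of the 22 libraries, by group, with symbols for batch and a line at the group mean. H2-K1 is lowest in spleen CD8 cells and highest in gut CD4 cells, whereas B2m differs little between populations. The triangles of batch 190306 are the highest of their group for H2-D1, Tap1, Tap2, Tapbp and Psmb8 in 8 of 8 groups. How many of all genes share this was not counted.

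The series asks how anti-IL-2 treatment changes donor T cells. In batches 181201 and 181212, 2 and 2 of the 10 members passed the test in CD4 and CD8 cells of spleen and 3 and 2 in CD4 and CD8 cells of gut, where 21%, 12.4%, 12.1% and 11% of all genes passed, so that the count in spleen CD4 cells was no more than the share over all genes. The light chain B2m passed in all 4 populations, the transactivator Nlrc5 in 3 and Psmb9 in both gut populations, while the heavy chains, the transporter, tapasin and the other immunoproteasome subunits did not pass in any. Fitted over all batches as labelled, no member passed. In those batches B2m rose with anti-IL-2 by 0.19 to 0.47 on the log2 scale in the 4 populations, and Nlrc5 rose by 0.26 to 0.39 in 3 of them. In batch 190306 all 3 genes were lower with anti-IL-2 in every population. Batch 190306 was therefore given its own treatment difference in the model, a choice made with results known. The first 2 batches were thus set apart by the direction of their difference. Their treatment p-values below describe those batches and are no independent evidence of a treatment effect. Each group of batch 190306 then held 1 library, so the spread between libraries came from the other 2 batches.

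B2m in spleen CD4 cells had 2129.8 and 2121 CPM with anti-IL-2 in batches 181201 and 181212, against 1841 and 1832 CPM with IgG. In batch 190306 it had 1892 CPM with anti-IL-2, against 2033 CPM with IgG. The anti-IL-2 libraries were thus above the IgG libraries in the first 2 batches and below in the third. The log2 fold change in the first 2 batches was 0.21 ± 0.05 (SE; edgeR quasi-likelihood test, Benjamini-Hochberg adjusted p = 0.00506), and it stayed below 0.05 without any single library. Over all genes 21% passed in this comparison, and 2 of the 10 members did, both higher.

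In spleen CD8 cells B2m had 2062 and 2104 CPM with anti-IL-2 in batches 181201 and 181212, against 1813 and 1831 CPM with IgG. In batch 190306 it had 1758 CPM with anti-IL-2, against 2028 CPM with IgG. The groups did not overlap within the first 2 batches, and the order was the reverse in the third. The log2 fold change was 0.19 ± 0.05 (edgeR adjusted p = 0.0139). It lost significance without either spleen CD8 anti-IL-2 or either spleen CD8 IgG library of those batches (0.17 to 0.21, adjusted p = 0.0757 to 0.149). Here 12.4% of all genes and 2 of the 10 members passed, both higher.

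Gut CD4 cells had the largest B2m difference. B2m stood at 2430.1 and 2376 CPM with anti-IL-2 in batches 181201 and 181212, against 1726 CPM in the only IgG library of those batches. In batch 190306 it stood at 1925 CPM with anti-IL-2, against 2259.6 CPM with IgG. The IgG library of batch 181212 was the lowest and the anti-IL-2 library of batch 181201 the highest of all 22. The log2 fold change was 0.47 ± 0.06 (edgeR adjusted p = 0.000419), and it passed without any single library that could be left out. In this comparison 12.1% of all genes and 3 of the 10 members passed, all 3 higher.

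In gut CD8 cells B2m had 2207 and 2136 CPM with anti-IL-2 in batches 181201 and 181212, against 1864 CPM with IgG, and in batch 190306 it had 1970.5 CPM with anti-IL-2, against 2346 CPM with IgG. The order of the groups again turned between batches. The log2 fold change was 0.22 ± 0.06 (edgeR adjusted p = 0.0310), and 11% of all genes and 2 of the 10 members passed, both higher. This B2m call was lost without the gut CD8 anti-IL-2 library of batch 181201 (0.20, adjusted p = 0.0668). It was also lost, at 0.21 to 0.22 and adjusted p = 0.0503 to 0.0537, without any one of the 4 spleen CD8 libraries or of the 2 spleen CD4 anti-IL-2 libraries of the first 2 batches.

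Nlrc5, which switches on class I transcription, followed the same batches with a wider range. In spleen CD8 cells it had 834 and 814 CPM with anti-IL-2 in batches 181201 and 181212, against 625 and 634 CPM with IgG. In batch 190306 the values were 560.4 CPM with anti-IL-2 and 730.5 CPM with IgG. The rise in the first 2 batches was 0.39 ± 0.07 (edgeR adjusted p = 0.00179), and it passed without any single library.

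Nlrc5 in spleen CD4 cells had 726 and 756 CPM with anti-IL-2 in batches 181201 and 181212, against 647 and 591 CPM with IgG. In batch 190306 it had 484 CPM with anti-IL-2 and 677 CPM with IgG. The groups did not overlap in the first 2 batches, with a log2 fold change of 0.26 ± 0.07 (edgeR adjusted p = 0.0126). The call was lost without the batch 181212 library of spleen CD4 anti-IL-2 (0.24, adjusted p = 0.0835) or of spleen CD4 IgG (0.16, adjusted p = 0.163).

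In gut CD4 cells Nlrc5 had 699.8 and 715 CPM with anti-IL-2 in batches 181201 and 181212, against 564 CPM with IgG, and in batch 190306 477 CPM with anti-IL-2, against 705 CPM with IgG. The lowest of the 22 libraries was thus the gut CD4 anti-IL-2 library of batch 190306. The rise in the first 2 batches was 0.34 ± 0.08 (edgeR adjusted p = 0.0202) and was lost without either gut CD4 anti-IL-2 library of those batches (0.34 and 0.33, adjusted p = 0.0657 and 0.0996). In gut CD8 cells it had 726 and 826 CPM with anti-IL-2, against 717 CPM with IgG, a difference of 0.12 ± 0.08 (edgeR adjusted p = 0.380) that did not pass. In batch 190306 the gut CD8 values were 642 CPM with anti-IL-2 and 923 CPM with IgG.

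Psmb9, an immunoproteasome subunit, passed in both gut populations. Gut CD4 cells had 148 and 137 CPM with anti-IL-2 in batches 181201 and 181212, against 112 CPM with IgG, a log2 fold change of 0.32 ± 0.09 (edgeR adjusted p = 0.0343). Gut CD8 cells had 173 and 153 CPM with anti-IL-2, against 125 CPM with IgG, a log2 fold change of 0.35 ± 0.09 (edgeR adjusted p = 0.0260). Batch 190306 again ran the other way, with 139 CPM in gut CD4 and 161 CPM in gut CD8 cells given anti-IL-2, against 168 CPM in both IgG libraries. In gut CD4 cells the call was lost without the gut CD4 anti-IL-2 library of batch 181201 or 181212 (0.30 and 0.36, adjusted p = 0.121 and 0.0997) or the spleen CD8 anti-IL-2 library of batch 181212 (0.33, adjusted p = 0.0522). In gut CD8 cells it was lost without the gut CD8 anti-IL-2 library of batch 181201 (0.29, adjusted p = 0.0877). DESeq2 called neither (adjusted p = 0.0860 in gut CD4 and 0.0651 in gut CD8 cells). In spleen the Psmb9 difference was 0.18 ± 0.07 in CD4 and 0.13 ± 0.07 in CD8 cells (edgeR adjusted p = 0.0873 and 0.304).

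The heavy chains did not pass in any population. H2-K1 was higher with anti-IL-2 in each of the 6 within-batch pairs of the first 2 batches, by 0.03 to 0.20 on the log2 CPM scale, and lower in each of the 4 pairs of batch 190306, by 0.13 to 0.29. Its edgeR differences in the first 2 batches ran from -0.01 ± 0.08 in gut CD8 to 0.15 ± 0.06 in spleen CD8 cells (adjusted p = 0.157 to 0.960). H2-D1 pointed the other way, with anti-IL-2 below IgG in 6 of 6 pairs of the first 2 batches by 0.01 to 0.16. Its edgeR differences ran from -0.17 ± 0.06 in gut CD8 to -0.07 ± 0.05 in spleen CD8 cells (adjusted p = 0.0924 to 0.448). Tap1, Tap2, Tapbp, Psmb8 and Psmb10 lay between -0.17 and 0.09 in the 4 populations, none past the threshold.

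**Figure D2:**
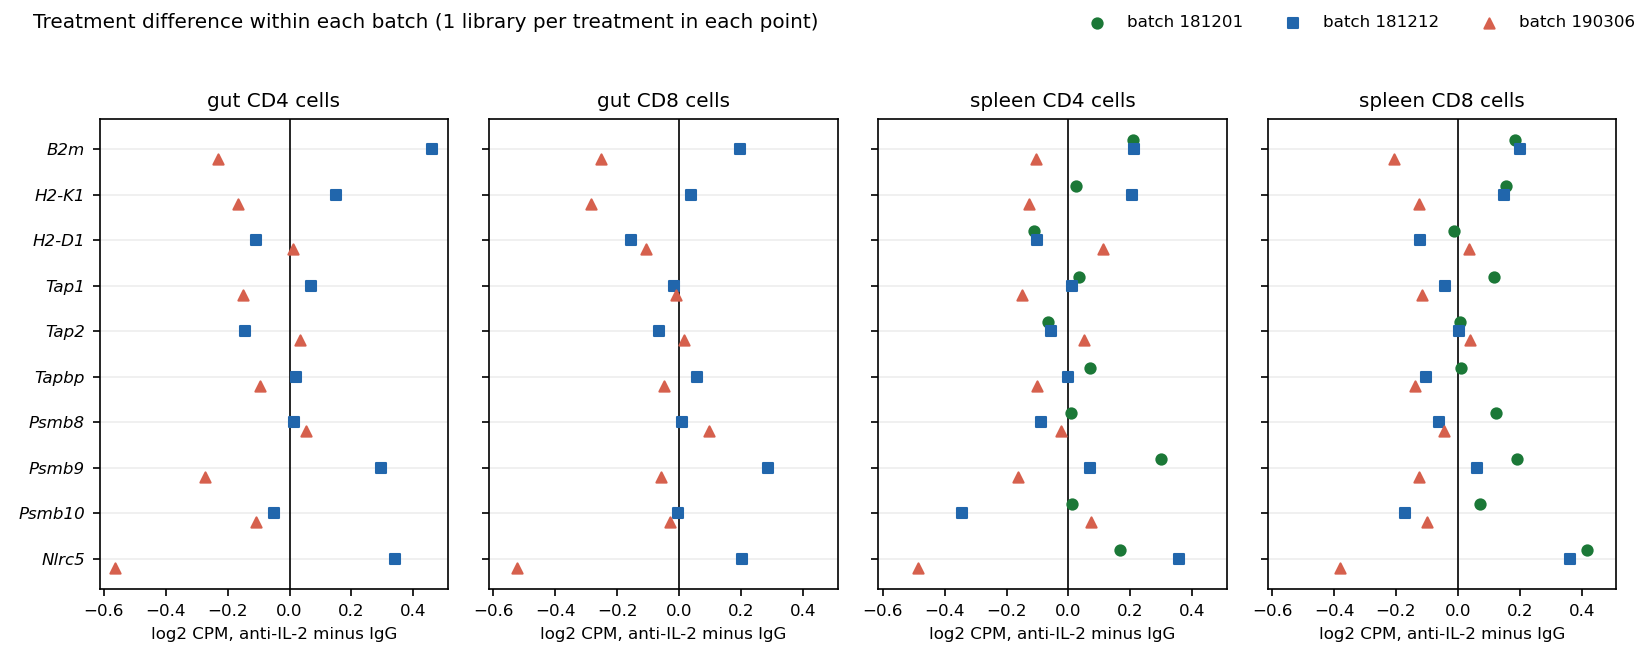
Difference in log2 CPM, anti-IL-2 minus IgG, within each batch for the 10 members in the 4 populations, each point from 1 library per treatment. B2m, Nlrc5 and Psmb9 lie right of 0 in all 6 pairs of batches 181201 and 181212 and left of 0 in all 4 pairs of batch 190306.

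The change of direction was measured as the treatment difference in batch 190306 minus that in the other batches. This term was chosen after the change of direction had been seen in the same libraries, with 1 library per group in batch 190306, so its p-values describe that change and are no independent evidence of it. B2m and Nlrc5 were past the threshold in all 4 populations. For B2m this term was -0.31 ± 0.08 for spleen CD4 and -0.40 ± 0.08 for spleen CD8 cells, and -0.70 ± 0.09 for gut CD4 and -0.47 ± 0.09 for gut CD8 cells (edgeR adjusted p = 0.0110, 0.00364, 0.000170 and 0.00357). For Nlrc5 it was -0.75 ± 0.11, -0.77 ± 0.11, -0.90 ± 0.13 and -0.65 ± 0.13 in the same order (edgeR adjusted p = 0.000349, 0.000439, 0.000412 and 0.00434), and for Psmb9 it passed in gut CD4 cells (-0.60 ± 0.13, adjusted p = 0.00919). Taking the populations in that order, 2, 2, 3 and 2 members passed, all lower, where 24.3%, 16.1%, 15% and 13% of all genes passed. Each of these 9 calls held without any single library that could be left out. Whether the treatment labels, the animals or the handling of batch 190306 differ was not tested, and no library was given another label.

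When treatment was fitted over all batches as labelled, no member and 0 of 12841 genes passed in any of the 4 populations, spleen CD4, spleen CD8, gut CD4 and gut CD8 (0% in each; edgeR). At an unadjusted p under 0.05 there were 282, 148, 750 and 953 genes, populations in that order, and among the members 0, 0, 0 and 1, the last being H2-D1 in gut CD8 cells (-0.14 ± 0.07, adjusted p = 0.670). DESeq2 passed 0, 0, 8 and 18 genes and limma voom 0 in each, and neither passed a member. B2m then differed by 0.11 ± 0.12 for spleen CD4 and 0.06 ± 0.12 for spleen CD8 cells, and 0.16 ± 0.14 for gut CD4 and -0.02 ± 0.14 for gut CD8 cells.

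Differences between the treatment effects were tested in the first 2 batches. No member passed for gut minus spleen in CD4 cells (5.53% of all genes), gut minus spleen in CD8 cells (2.55%) or CD4 minus CD8 in spleen (1.12%). At an unadjusted p under 0.05 these held 1, 1 and 0 members, B2m in CD4 cells and Nlrc5 in CD8 cells. The B2m difference was larger in gut than in spleen CD4 cells by 0.26 ± 0.07 (edgeR adjusted p = 0.0588), which passed under DESeq2 and limma voom. For Nlrc5 in CD8 cells the gut effect was smaller than the spleen effect by 0.27, as a difference of -0.27 ± 0.11 (edgeR adjusted p = 0.237). The B2m call was also made without the gut CD8 anti-IL-2 library of batch 181201 or 181212, the gut CD8 IgG library of batch 181212, the spleen CD8 anti-IL-2 library of batch 190306 or the spleen CD4 IgG library of batch 190306. With 1 gut IgG library per cell type in these batches, the gut side of each test rests on that library.

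Class II genes moved in the same direction as B2m and Nlrc5. H2-Aa, H2-Ab1, H2-Eb1 and Cd74, which mark antigen-presenting cells, summed to 21.5 to 102 CPM in the anti-IL-2 libraries of the 6 pairs of batches 181201 and 181212, against 7.16 to 25.2 CPM in the IgG libraries, with all 4 genes higher in each pair. In batch 190306 they summed to 3.64 to 21.1 CPM with anti-IL-2, against 9.96 to 86.9 CPM with IgG. The sum was lower in each pair of that batch, but 1 of the 4 genes was higher in gut CD4 and 1 in gut CD8 cells. None of the 4 was at 0 in any library. The 5 T cell genes also followed by their sum, at 3271 to 4267 CPM with anti-IL-2, against 2920.1 to 3966 CPM with IgG in those 6 pairs, higher in each pair. In batch 190306 they summed to 3152 to 4235 CPM with anti-IL-2, against 3485 to 4392 CPM with IgG. That sum was lower in each pair, although 3 of the 5 genes were higher with anti-IL-2 in gut CD4 cells. The NK genes Ncr1 and Klrb1c summed to 9.57 to 19.4 CPM with anti-IL-2, against 19.6 to 100.3 CPM with IgG in those 6 pairs, lower in each. In batch 190306 they summed to 9.70 to 30.9 CPM with anti-IL-2, against 5.94 to 17.5 CPM with IgG, higher in 3 of 4 pairs. Of 9 macrophage and dendritic cell genes, the 8 other than Itgax went with class II by their sum. They summed to 25.1 to 137.9 CPM with anti-IL-2, against 12.4 to 42.1 CPM with IgG in those 6 pairs, higher in each, and to 15.3 to 53.4 CPM, against 30.2 to 109 CPM, in batch 190306, lower in each of 4. Itgax alone, at 24.9 to 432 CPM with anti-IL-2, against 67.3 to 544 CPM with IgG, was lower in each of the 6 pairs. The sum of all 9 was higher with anti-IL-2 in 1 of the 6 pairs and in 2 of 4 pairs of batch 190306. Gene by gene, 4 to 8 of the 9 were higher in a pair of the first 2 batches. In a pair of batch 190306, 2 to 3 of the 9 were higher. Erythroid genes (3 of 4 listed were in the table) summed higher with anti-IL-2 in each of the 6 pairs, at 0.118 to 30.7 CPM, against 0 to 1.64 CPM with IgG. Only spleen CD4 and CD8 cells of batch 181201 had more than 1.19 CPM with anti-IL-2, at 30.7 and 13.7 CPM. The other pairs lay near the floor, and in spleen CD8 cells of batch 181212 the sums were almost equal, 0.118 against 0.111 CPM. B and plasma cell genes were higher in 4 of the 6, at 5.55 to 472 CPM, against 2.48 to 25.97 CPM with IgG. In batch 190306 each of these 2 lists was higher with anti-IL-2 in 2 of 4 pairs. Gut epithelial genes did not turn with batch, being higher with anti-IL-2 in 4 of the 6 pairs and in 4 of 4 pairs of batch 190306. Fat and stromal genes summed higher in each of the 6, at 0.412 to 23.4 CPM, against 0.231 to 0.909 CPM with IgG, and lower in each of the 4 pairs of batch 190306. In the spleen pairs of the first 2 batches these sums were near the floor, at 0.412 to 1.53 CPM, against 0.231 to 0.375 CPM with IgG. The part of these cells in the B2m, Nlrc5 and Psmb9 differences was not tested.

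Genes around the pathway were read from lists chosen with earlier results of these data known, and their counts stand against the shares of all genes given above for each population. Of 12 interferon response genes, 11 and 12 rose with anti-IL-2 in spleen CD4 and CD8 cells of the first 2 batches and 10 and 6 in gut CD4 and CD8 cells, with none lower. Their median log2 fold changes were 1.23, 0.88, 1.22 and 0.85, where the median over all genes was -0.01, 0.00, -0.01 and 0.01 and that over the 10 members was 0.03, 0.03, 0.08 and 0.03. Mx1, an antiviral GTPase, rose by 1.46 ± 0.09 in spleen CD4 and by 1.45 ± 0.13 in gut CD4 cells (edgeR adjusted p = 3.05e-07 and 3.54e-05). Oas1a, an antiviral nucleotide synthetase, rose by 1.35 ± 0.13 in spleen CD8 and by 1.24 ± 0.16 in gut CD8 cells (adjusted p = 3.30e-05 and 0.000604). Within batch 190306 all 12 were lower with anti-IL-2 in each population, with medians of -0.98, -1.10, -0.85 and -0.52 on the log2 CPM scale.

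Among 12 interferon-gamma induced GTPases, 7 rose and 1 fell in spleen CD4, and 4, 3 and 2 rose in spleen CD8, gut CD4 and gut CD8 cells. Iigp1 rose by 1.32 ± 0.15 in spleen CD4 and by 2.18 ± 0.37 in gut CD8 cells (edgeR adjusted p = 5.02e-05 and 0.00287). Of 12 regulators of class I transcription, 3 rose and 1 fell in spleen CD4, 4 rose and 1 fell in spleen CD8, and 4 and 2 rose in gut CD4 and gut CD8 cells. Rfx5, a DNA-binding partner of Nlrc5, rose by 0.41 ± 0.08 for spleen CD8, 0.52 ± 0.10 for gut CD4 and 0.61 ± 0.10 for gut CD8 cells (edgeR adjusted p = 0.00415, 0.00511 and 0.00226).

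Class Ib genes encode less variable relatives of the heavy chains. Of the 13 tested among 17 listed, 2 rose and 1 fell in spleen CD4 cells, where 21% of all genes passed, and 1 rose in each other population, where 11% to 12.4% passed, so the list did not exceed the background by its count. H2-T23, which encodes Qa-1, rose by 0.22 ± 0.06 in spleen CD4, 0.28 ± 0.06 in spleen CD8 and 0.32 ± 0.08 in gut CD8 cells (edgeR adjusted p = 0.0256, 0.0103 and 0.0214). H2-Q7, which encodes Qa-2, rose by 0.64 ± 0.13 in gut CD4 cells (adjusted p = 0.0118). Of 6 chaperones and trimming enzymes, Calr rose by 0.22 ± 0.06 in gut CD4 cells, and Calr, Canx and Pdia3 rose by 0.40 ± 0.06, 0.39 ± 0.08 and 0.29 ± 0.06 in gut CD8 cells (edgeR adjusted p = 0.0397, 0.00189, 0.00684 and 0.0119), with none past the threshold in spleen. Of 8 proteasome partners, 0 passed in any population (edgeR; 3, 3, 0 and 1 at an unadjusted p under 0.05).

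**Figure D3:**
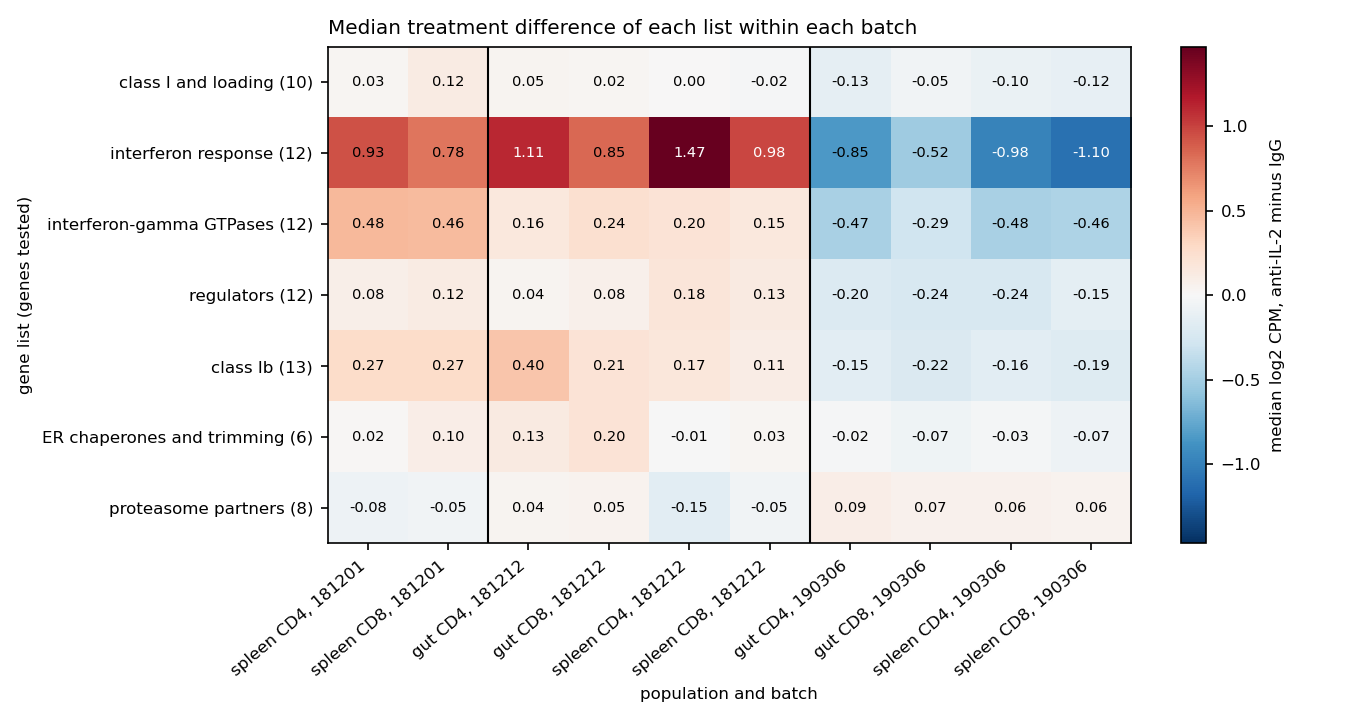
Median difference in log2 CPM, anti-IL-2 minus IgG, of each gene list (rows) in each population and batch (columns), 1 library per treatment. The interferon response row runs from 0.78 to 1.47 in batches 181201 and 181212 and from -1.10 to -0.52 in batch 190306, while the row of the 10 members stays between -0.13 and 0.12.

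Between tissues the direction was shared by the members that passed. Gut T cells had more RNA of both heavy chains, of Tap2 and of 2 immunoproteasome subunits than spleen T cells of the same type. In CD4 cells 5 of the 10 members were higher in gut and none lower, where 49.3% of all genes passed. In CD8 cells 6 were higher and none lower, where 47.8% passed. Those shares count genes in either direction, and the counts of members that passed were near them. Of all 12841 genes, 3413 were higher and 2916 lower in gut than in spleen CD4 cells. In CD8 cells 3189 were higher and 2952 lower. The median over the members was 0.11 in CD4 and 0.14 in CD8 cells, against 0.01 and 0.00 over all genes. These contrasts compared libraries of the same batch and treatment.

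H2-K1 ran from 2841 to 3648 CPM (median 3153) in 5 gut CD4 libraries, against 2351 to 2834 CPM (median 2725) in 6 spleen CD4 libraries. In CD8 cells it ran from 2223 to 2708 CPM (median 2249) in gut, against 1722 to 2125 CPM (median 1894) in spleen. The tissues did not overlap in either cell type. The log2 differences were 0.26 ± 0.05 and 0.32 ± 0.05 (edgeR adjusted p = 0.000429 and 7.28e-05). H2-D1 was higher in gut by 0.25 ± 0.04 in CD4 and 0.19 ± 0.04 in CD8 cells (edgeR adjusted p = 1.65e-05 and 0.000267), with overlapping groups but gut above spleen in 5 of 5 pairs of each cell type.

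Tap2, one chain of the peptide transporter, had the largest tissue difference. It ran from 407 to 535 CPM (median 450.1) in gut, against 328 to 410.4 CPM (median 347) in spleen CD4 libraries, and from 339 to 431 CPM (median 363) in gut, against 278 to 347 CPM (median 287) in spleen CD8 libraries. The ranges overlapped, but within each batch and treatment gut was above spleen in 5 of 5 pairs of each cell type. The log2 differences were 0.36 ± 0.03 and 0.32 ± 0.03 (edgeR adjusted p = 4.18e-08 and 2.05e-07). Its partner chain Tap1 differed by 0.02 ± 0.04 and 0.03 ± 0.04 (95% intervals -0.06 to 0.09 and -0.04 to 0.11), which did not pass.

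The immunoproteasome subunits differed among themselves. Psmb10 was higher in gut by 0.27 ± 0.05 in CD4 and 0.29 ± 0.05 in CD8 cells, and Psmb8 by 0.13 ± 0.04 and 0.14 ± 0.04 (edgeR adjusted p = 0.000133, 5.36e-05, 0.00907 and 0.00564). The Psmb8 calls were lost when library totals replaced TMM scaling (0.03 and 0.09, adjusted p = 0.543 and 0.0594) and without batch 190306 (0.09 and 0.11, adjusted p = 0.168 and 0.0937). Psmb9 did not pass (0.04 ± 0.05 and -0.02 ± 0.05). Tapbp was higher in gut CD8 cells by 0.15 ± 0.05 (edgeR adjusted p = 0.0181). This call was lost without any one of the 4 CD8 libraries of batch 190306 (0.11 to 0.13, adjusted p = 0.0517 to 0.0955) and was 0.05 without that batch (adjusted p = 0.422). B2m differed by 0.09 ± 0.04 in CD4 and 0.10 ± 0.04 in CD8 cells (adjusted p = 0.0883 and 0.0570), and Nlrc5 by -0.05 ± 0.06 and 0.13 ± 0.06 (adjusted p = 0.505 and 0.0815).

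Without the 5 CD8 IgG libraries whose tissue labels disagree, 3 members passed in CD8 cells. H2-K1 then differed by 0.23 (adjusted p = 0.0214), Tap2 by 0.29 (adjusted p = 0.000631) and Psmb10 by 0.34 (adjusted p = 0.00281). The calls of H2-D1, Psmb8 and Tapbp were lost, at 0.14 (adjusted p = 0.0526), 0.16 (adjusted p = 0.0507) and 0.19 (adjusted p = 0.0505). Gut epithelial genes summed to 17.5 to 97.1 CPM in gut, against 5.54 to 10.5 CPM in spleen libraries, and the T cell genes to 3897 to 4475 CPM in gut, against 2920.1 to 3681 CPM in spleen libraries, neither overlapping. B and plasma cell genes summed to 14.9 to 472 CPM in gut, against 2.48 to 20.9 CPM in spleen libraries, and fat and stromal genes to 0.610 to 23.4 CPM, against 0.186 to 1.53 CPM. Their part in the tissue differences was not tested. The tissue difference was compared between CD4 and CD8 cells, and no member passed (edgeR, 4.65% of all genes). At an unadjusted p under 0.05 there was 1 member, Nlrc5 (-0.18 ± 0.08, adjusted p = 0.218).

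In CD4 cells the interferon response list ran against the heavy chains between tissues, and in CD8 cells it was mixed. The counts of this and the other lists stand against 49.3% of all genes that passed in CD4 and 47.8% in CD8 cells, in either direction. In CD4 cells 0 of its 12 genes were higher and 10 were lower in gut, with a median of -0.73, led by Rsad2 (-2.49 ± 0.16), Usp18 (-1.80 ± 0.13) and Ifit3 (-2.11 ± 0.22; edgeR adjusted p = 1.59e-09, 9.57e-09 and 1.14e-06). In CD8 cells 2 of the 12 interferon response genes were higher and 4 lower. Of the 13 class Ib genes tested, 4 were higher and 3 lower in gut CD4 cells and 4 were higher and 2 lower in gut CD8 cells. H2-Q4 was higher in gut by 0.37 ± 0.09 and 0.59 ± 0.09, and H2-T24 fell by 0.65 and 0.45 (SE 0.09 and 0.10; edgeR adjusted p = 0.00313 and 6.09e-05 for H2-Q4, 1.95e-05 and 0.000977 for H2-T24). Of the 12 regulators 4 were higher and 3 lower in CD4 and 7 higher and 3 lower in CD8 cells. Irf1, an interferon-induced transcription factor that binds class I promoters, was higher in gut CD4 cells by 0.48 ± 0.07, and Rela, the p65 subunit of NF-kappaB, by 0.27 ± 0.04 in CD4 and 0.30 ± 0.04 in CD8 cells (edgeR adjusted p = 1.44e-05, 1.59e-05 and 5.80e-06). Tapbpl, a tapasin relative that edits peptides, was higher in gut by 0.18 ± 0.06 and 0.22 ± 0.06 (edgeR adjusted p = 0.0157 and 0.00343).

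**Figure D4:**
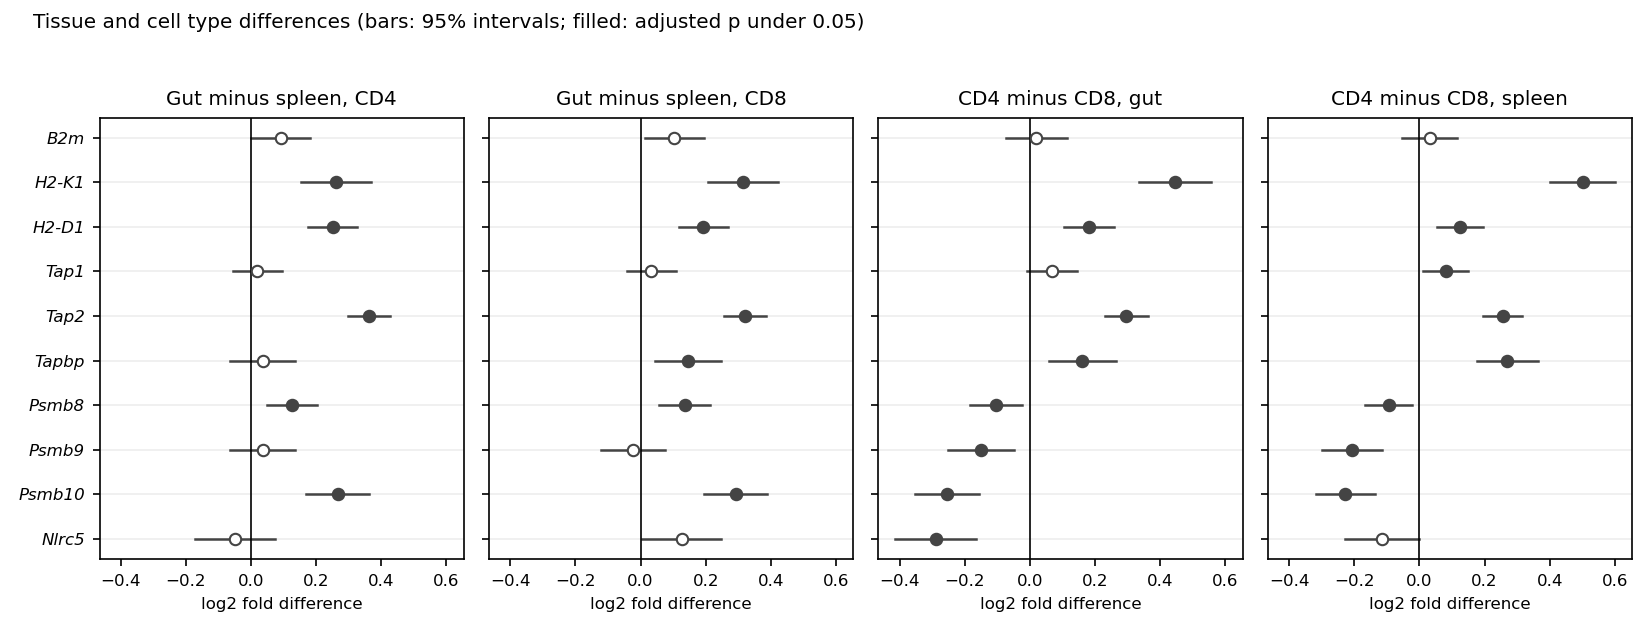
Log2 difference of each member for gut minus spleen and for CD4 minus CD8, with 95% intervals, filled where the adjusted p is under 0.05. H2-K1 and Tap2 lie right of 0 in all 4 panels, Psmb8, Psmb9 and Psmb10 lie left of 0 in both panels of CD4 minus CD8, and B2m is open in all 4.

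Between cell types members differed in both directions. The heavy chains, Tap2 and Tapbp were higher in CD4 than in CD8 cells in both tissues, the immunoproteasome subunits were lower, and B2m did not pass in either. Tap1, the partner of Tap2, passed in spleen only and Nlrc5 in gut only, and whether roles differ as groups was not tested. In spleen 5 members were higher and 3 lower in CD4 cells, where 58.1% of all genes passed. In gut 4 were higher and 4 lower, where 46% passed.

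H2-K1 differed most. The 6 spleen CD4 libraries had 2351 to 2834 CPM, against 1722 to 2125 CPM in the 6 spleen CD8 libraries, and the 5 gut CD4 libraries had 2841 to 3648 CPM, against 2223 to 2708 CPM in the 5 gut CD8 libraries. The cell types did not overlap in either tissue. The log2 differences were 0.50 ± 0.05 in spleen and 0.45 ± 0.05 in gut (edgeR adjusted p = 7.97e-08 and 2.10e-06). H2-D1, the other heavy chain, was higher by 0.12 ± 0.03 and 0.18 ± 0.04 (adjusted p = 0.00389 and 0.000508). Tap2 was higher by 0.26 ± 0.03 and 0.30 ± 0.03, with CD4 above CD8 in 6 of 6 and 5 of 5 pairs (adjusted p = 5.01e-07 and 5.29e-07).

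Tapbp was higher in CD4 cells by 0.27 ± 0.04 in spleen and 0.16 ± 0.05 in gut (edgeR adjusted p = 4.63e-05 and 0.0120), the gut call being lost without the gut CD8 IgG library of batch 181212 or the gut CD4 IgG library of batch 190306 (0.13 and 0.14, adjusted p = 0.0603 and 0.0543). Tap1 passed in spleen by 0.08 ± 0.03 (adjusted p = 0.0466), a call lost in 15 of 22 fits that left out a library, 5 spleen CD4, 4 spleen CD8 and 6 gut libraries (0.07 to 0.09, adjusted p = 0.0515 to 0.118). Psmb10 was lower in CD4 cells by 0.23 in spleen and 0.25 in gut (as -0.23 ± 0.04 and -0.25 ± 0.05), and Psmb9 showed -0.21 ± 0.04 and -0.15 ± 0.05 (adjusted p = 0.000191, 0.000250, 0.000503 and 0.0155). Psmb9 in gut was lost without the gut CD8 anti-IL-2 library of batch 181201 or 181212, the gut CD4 IgG library of batch 181212 or the gut CD4 anti-IL-2 library of batch 190306 (-0.13 to -0.11, adjusted p = 0.0528 to 0.0659).

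Psmb8 showed -0.09 ± 0.03 in spleen and -0.10 ± 0.04 in gut (edgeR adjusted p = 0.0252 and 0.0304). Each of these calls was lost in 5 of 22 fits that left out a library. In spleen these were the 3 CD4 anti-IL-2 libraries, the CD8 anti-IL-2 library of batch 181201 and the CD8 IgG library of batch 181212 (-0.09 to -0.06, adjusted p = 0.0508 to 0.117). In gut they were the 3 CD8 anti-IL-2 libraries, the CD4 anti-IL-2 library of batch 181201 and the CD4 IgG library of batch 181212 (-0.10 to -0.07, adjusted p = 0.0612 to 0.113). Nlrc5 was lower in gut CD4 than in gut CD8 cells (-0.29 ± 0.06, adjusted p = 0.000629, but 0.153 in a model of the 8 groups plus batch and 0.160 with no block) and showed -0.11 ± 0.05 in spleen (adjusted p = 0.0802). B2m differed by 0.03 ± 0.04 in spleen and 0.02 ± 0.04 in gut, with 95% intervals of -0.05 to 0.12 and -0.07 to 0.11. Without the 5 CD8 IgG libraries of uncertain tissue, H2-D1, Psmb8 and Tap1 were lost in spleen (0.11, -0.11 and 0.07, adjusted p = 0.0860, 0.117 and 0.261) and Psmb8 and Tapbp in gut (-0.14 and 0.15, adjusted p = 0.0546 and 0.0818).

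Macrophage and dendritic cell genes summed to 49.9 to 195 CPM in CD4, against 357 to 688 CPM in CD8 libraries, without overlap. Most of this was Itgax, at 24.9 to 179.8 CPM in CD4, against 307 to 617 CPM in CD8 libraries, and the other 8 genes overlapped (12.4 to 137.9 CPM, against 30.5 to 90.9 CPM). Class II genes overlapped too, at 14.4 to 101.7 CPM in CD4, against 3.64 to 77.3 CPM in CD8 libraries. Their part in the cell type differences was not tested.

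The neighbouring lists also differed in part between cell types. Their counts stand against 58.1% of all genes that passed in spleen and 46% in gut, in either direction. In spleen CD4 cells 11 of 12 interferon response genes were higher than in CD8 cells and none lower, with a median of 0.83, while in gut 1 was higher and 2 lower. Of the interferon-gamma induced GTPases 10 of 12 in spleen and 9 of 12 in gut were higher and none lower, led by Igtp (0.82 ± 0.05 and 0.74 ± 0.06; edgeR adjusted p = 6.19e-10 and 1.56e-08). Of the regulators 7 were higher and 1 lower in spleen and 5 higher in gut, with Nfkb1 at 0.82 ± 0.07 and 0.94 ± 0.08 (adjusted p = 3.35e-08 and 3.60e-08). Among proteasome partners 1 was higher and 5 were lower in spleen and 1 higher and 4 lower in gut. Psmb6 and Psmb7, the constitutive counterparts of Psmb9 and Psmb10, showed -0.36 ± 0.04 and -0.35 ± 0.05 in spleen (adjusted p = 2.18e-07 and 8.61e-06). Of the chaperones and trimming enzymes 3 were lower in spleen and 2 in gut, led by Tapbpl (-0.55 ± 0.05 and -0.60 ± 0.06; adjusted p = 7.35e-08 and 1.81e-07).

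Each immunoproteasome subunit replaces a constitutive one, so their ratio per kilobase of exon was computed in each library. Psmb8 over Psmb5 had a median of 6.22 (5.35 to 7.97 over the 22 libraries), Psmb10 over Psmb7 of 2.82 (2.18 to 3.83) and Psmb9 over Psmb6 of 1.02 (0.820 to 1.21). On this scale the immunoproteasome form was the higher in every library for the Psmb8 and Psmb10 pairs and about equal for the Psmb9 pair. The levels of the ratios depend on the length of all annotated exons, which can differ from that of the transcripts present. It was 3381 bases for Psmb8 and 899 for Psmb5, 1705 for Psmb10 and 3421 for Psmb7, and 3660 for Psmb9 and 1872 for Psmb6. Without this scaling the medians were 439 against 18.3 CPM, 132 against 92.4 CPM and 144 against 72.7 CPM, pairs in that order. The Psmb8 and Psmb10 ratios were higher in gut in 10 of 10 pairs of the same cell type, batch and treatment, and the Psmb9 ratio in 3 of 10. Psmb9 over Psmb6 was higher in CD4 than in CD8 cells in 11 of 11 pairs, although Psmb9 itself was lower in CD4 cells, since Psmb6 was lower by more. The Psmb8 and Psmb10 ratios were each higher in CD4 cells in 8 of 11 pairs. With anti-IL-2 Psmb9 over Psmb6 was higher in 6 of 6 pairs of batches 181201 and 181212, by 0.132 to 0.285, and lower in 4 of 4 pairs of batch 190306, by differences of -0.262 to -0.145. Psmb8 over Psmb5 was higher in 4 of the 6 and 1 of the 4 pairs, and Psmb10 over Psmb7 in 3 of the 6 and 0 of the 4. These ratios were not tested, and they compare transcripts and not proteins.

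**Figure D5:**
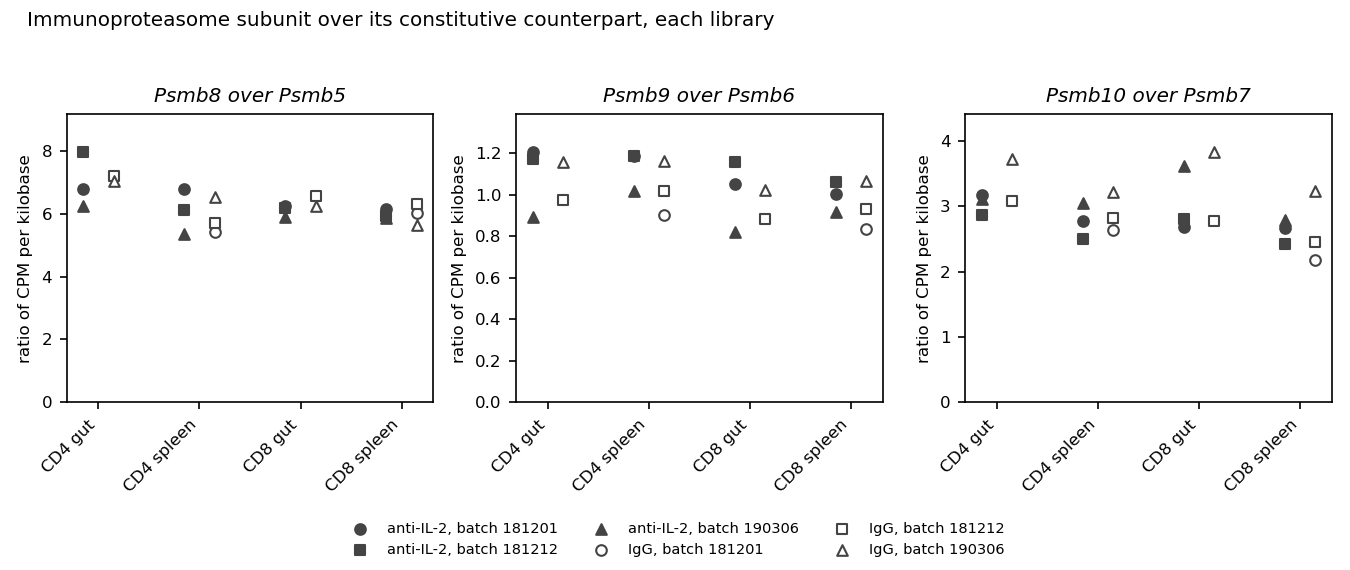
Ratio of CPM per kilobase of each immunoproteasome subunit to its constitutive counterpart in each library, by population, with filled symbols for anti-IL-2, open symbols for IgG and shapes for batch. Psmb8 over Psmb5 stays between 5.35 and 7.97, Psmb10 over Psmb7 between 2.18 and 3.83 and Psmb9 over Psmb6 between 0.820 and 1.21.

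Apart from treatment, tissue and cell type, most members moved with batch. How many of all genes did so was not counted, so this is not shown to be particular to the members. Batch 190306 held the highest library of its group in 8 of 8 groups for H2-D1, Tap1, Tap2, Tapbp and Psmb8, in 7 for Psmb10 and in 6 for Psmb9. For H2-K1 it held the highest library in 4 groups and the lowest in 3. For B2m and Nlrc5 it held the highest library in 4 groups, all IgG, and the lowest in the other 4. The medians of H2-D1 were 2076 CPM in batch 190306 and 1700.0 CPM in the other batches. Batch 190306 also held the 7 deepest libraries, and the part of depth in these levels was not tested.

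To describe which genes ran most like the pathway, log2 CPM was centred within each population and compared with the mean of the 10 members over the 22 libraries, among 9585 genes whose mean log2 CPM reached 2. The 6 highest Pearson r were those of Sbno2 (0.959), Clptm1l (0.950), Lime1 (0.947), Jak3 (0.947), Pigq (0.943) and Wbp2 (0.943). Of the members themselves Tap1 was nearest to the mean (r = 0.961), then Tapbp (0.926), Psmb9 (0.857), Psmb8 (0.822), Psmb10 (0.815), Tap2 (0.750), H2-D1 (0.713) and H2-K1 (0.651), with B2m (0.428) and Nlrc5 (0.155) farthest. Each member is itself part of that mean, which raises its r, so these values are not comparable with those of the 6 other genes. B2m ran closest to Nlrc5 among the members (r = 0.786), and H2-D1 to Tap2 (r = 0.954). The 22 libraries share batches and treatments, so these values describe them and carry no p.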

How the data were processed

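RNA-seq was analysed from 22 libraries in 8 groups. The deposited table holds raw read counts for 24091 gene symbols; TopHat2, HTSeq 0.9.1 and the build mm10 are named in the submitters' processing notes, and the annotation, the strand setting and the rule for reads with several matches are not given in the sources used here. Groups came from the source name and characteristics. Total counts of 14628806 to 24518362 per library set the precision.

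edgeR 4.0.16 in R 4.3.3 was used with TMM scaling, its default filter on low counts (12841 genes kept), robust quasi-likelihood tests and Benjamini-Hochberg adjustment over all genes tested, at a threshold of 0.05, two-sided. Log2 CPM used a prior count of 2. The treatment model gave batch 190306 its own treatment difference (5 residual degrees of freedom). A second model fitted 8 groups with batch over all libraries (12 degrees of freedom). Tissue and cell type were fitted as 4 populations within 6 blocks of batch and treatment (13 degrees of freedom). The code was tested on simulated data. Alternatives were other scalings, no filter, DESeq2 1.42.0, limma voom (limma 3.58.1), other batch terms, and leaving out libraries.

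The 10 members are named in every comparison, and from each list at most 3 genes with the smallest p among those past the threshold; 1 gene of the regulator list is not reported here by name. Members and lists were chosen with earlier results of these data known. Log2 differences are fits of edgeR with SE unless said otherwise.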

Additional observations from a re-analysis of the deposited data

Results flagged for a closer look

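The treatment difference of B2m, anti-IL-2 minus IgG, was lower in batch 190306 than in the other batches by a tested term in every population. This term was -0.31 for spleen CD4 and -0.40 for spleen CD8 cells, and -0.70 for gut CD4 and -0.47 for gut CD8 cells (edgeR adjusted p = 0.0110, 0.00364, 0.000170 and 0.00357). Nlrc5 stood out in the same way, with -0.75 for spleen CD4 and -0.77 for spleen CD8 cells, and -0.90 for gut CD4 and -0.65 for gut CD8 cells (edgeR adjusted p = 0.000349, 0.000439, 0.000412 and 0.00434). Psmb9 did so in gut CD4 cells, at -0.60 (edgeR adjusted p = 0.00919). Each term rests on 1 library per group in batch 190306 and was chosen after the change of direction had been seen in these libraries, so it is no independent evidence, and its cause was not tested.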

How the results depend on the processing

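Of 45 called member differences, none changed sign under any alternative run. Leaving out 1 library kept the call in 908 of 962 fits, and the other alternatives kept it in 318 of 360. Numbers of members past the threshold moved by more than 1.5 times under few alternatives. DESeq2 passed 1 member for treatment in gut CD8 cells, against 2 by edgeR, and both DESeq2 and limma voom passed 1 for the gut minus spleen difference of the CD4 treatment effects, against 0. With no block for batch and treatment, 3 members passed for gut minus spleen in CD4 and 3 in CD8 cells, against 5 and 6, and 2 passed for CD4 minus CD8 in spleen and 2 in gut, against 8 and 8. A model of the 8 groups plus batch passed 5 for CD4 minus CD8 in gut, losing Nlrc5, Psmb8 and Psmb9. Without the 5 CD8 IgG libraries 3 passed for gut minus spleen in CD8 cells. With 1 library left out, treatment in the first 2 batches passed 1 to 3 members in spleen CD4, 1 to 2 in spleen CD8, 1 to 3 in gut CD4 and 0 to 2 in gut CD8 cells. The corresponding ranges were 0 to 1 for the gut minus spleen difference of the CD4 treatment effects and 0 to 1 for the CD4 minus CD8 difference of the tissue effects. Over all genes DESeq2 called fewer for treatment (1512, 844, 713 and 651, against 2694, 1592, 1556 and 1412 by edgeR, in spleen CD4, spleen CD8, gut CD4 and gut CD8 cells) and for the difference between batches (1711, 1166, 983 and 810, against 3123, 2070, 1921 and 1666). With no block, 3259, 3163, 4715 and 2976 genes passed for the 2 tissue and 2 cell type differences, against 6329, 6141, 7459 and 5906, and without the 5 CD8 IgG libraries 3635 passed for gut minus spleen in CD8 cells. For the differences between treatment effects (gut minus spleen in CD4 cells, gut minus spleen in CD8 cells, CD4 minus CD8 in spleen), edgeR called 710, 328 and 144 genes, DESeq2 420 and 206 for the first pair, and edgeR with no term between the first 2 batches 239, 84 and 62. That last fit called 896 genes for treatment in gut CD4 cells. For the CD4 minus CD8 difference of the tissue effects edgeR called 597 genes, DESeq2 962, the 8 groups plus batch 42, no block 36, the fit without the 5 CD8 IgG libraries 60 and the fit without batch 190306 120. For treatment over all batches in gut CD4 cells, edgeR with DESeq2 size factors called 1 gene, against 0. Leaving out 1 library gave as few as 1613, 696, 642 and 864 genes for treatment in the first 2 batches, populations ordered as above, and as few as 275, 67 and 34 for the differences between treatment effects and 315 for that of the tissue effects. With library totals in place of TMM the median over all genes lay between -0.0879 and 0.0641 on the log2 scale. Leaving out batch 190306 was chosen after seeing the data. The causes of these changes were not tested. The labels carry no replicate numbers that pair libraries; tissue and cell type were compared within blocks of batch and treatment, and treatment with batch as a term. No member count was under 1449, and the number of libraries per group limits the precision.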
